A study of Mus musculus with 36 samples.

Results

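P-body enrichment in naive mouse embryonic stem (ES) cells was compared with P-body enrichment in mouse embryonic fibroblasts (MEFs). Enrichment is the log2 ratio of P-body over cytoplasm, and the comparison is the difference of the 2 ratios, naive minus MEF, for each gene. A positive difference means that a transcript lay more in P-bodies, relative to the cytoplasmic fraction before sorting, in naive cells than in MEFs. The comparison used 8 of the 36 samples of the series, in 4 groups of 2 replicates: mES_naive_pbody, mES_naive_cyto, MEF-ctrl_pbody and MEF-ctrl_cyto. Of 18143 genes tested, 9307 were expressed in both cell types, with a mean level of at least 5 CPM (reads scaled to the library total) over the 4 libraries of each cell type, and these genes are described here.

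The methods of the study give the naive cells as v6.5 ES cells, from a cross of C57BL/6 and 129S4Sv/Jae mice. Its reporting summary lists male KH2 mouse ES cells and does not name v6.5, so the line is not settled here. The naive cells were grown in serum-free N2B27 medium with 2 kinase inhibitors and LIF. The MEFs came from E13.5 embryos without head, limbs, spinal cord and inner organs, and were grown in serum at low oxygen. By the methods of the study, MEFs for reprogramming carried inducible reprogramming factors at Col1a1, a transactivator at Rosa26 and a Pou5f1 reporter. In the paper the MEFs profiled beside the reprogramming cells are described as uninduced, and both CD1 wild type and reprogramming-factor mice are given as sources of MEFs. Which of these the libraries labelled ctrl came from is not given in the sources used here. Both cell types carried a lentiviral GFP-LSM14A transgene under the EF1a promoter, and GFP-positive particles were sorted as P-bodies from a cytoplasmic pellet of the lysate. The fraction called cytoplasm here is that pellet before sorting. It therefore still holds P-bodies and leaves out the supernatant, so a ratio is not P-body against the rest of the cytoplasm. Naive cells and MEFs thus differ in medium and serum, and may differ in strain, as well as in cell type, and these cannot be told apart.

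P-bodies are condensates in the cytoplasm, built of RNA and proteins, and contain the helicase DDX6, the scaffold proteins LSM14A and EDC4, the decapping enzymes and the microRNA machinery. Messenger RNAs held in them are not engaged with ribosomes and can return to translation. In earlier work on cell lines, AU-rich transcripts that encode regulatory proteins were typical of P-bodies, whereas transcripts of housekeeping genes were mostly outside them. Naive ES cells are a culture model of the preimplantation epiblast, and MEFs are mesenchymal cells of the embryo that secrete extracellular matrix.

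The naive libraries held 10770150 to 12772246 assigned reads and the MEF libraries 25315619 to 31185874. Replicates correlated at a Spearman rho of 0.971 to 0.997 across 9993 genes, and the naive cytoplasm pair was the most spread, with an SD of the log2 difference between replicates of 0.498 against 0.193 to 0.314 in the other groups. All 10 naive ES markers (among them Pou5f1, Nanog and Esrrb) were at 35.6 CPM or more in the naive libraries, where they summed to 4498 to 7927 CPM, against 32.2 to 48.5 CPM in MEF libraries. The 10 fibroblast markers (among them Col1a1, Thy1 and Twist1) summed to 11646 to 40557 CPM in MEF libraries and to 13.9 to 78.3 CPM in naive libraries. These sums are CPM of the assigned reads, without TMM scaling. The MEF P-body libraries differed in some markers of other cell types. Here 11 lung epithelial genes summed to 6.42 CPM in replicate 1, to 90.6 CPM in replicate 2 and to at most 0.24 CPM in the MEF cytoplasm. None of these 11 genes was expressed in both cell types, and 1 of the 11 was at 0 in both MEF P-body libraries. The 11 blood genes summed to 7.99 CPM in MEF P-body replicate 1, to 35.6 CPM in replicate 2 and to 3.95 to 4.43 CPM in MEF cytoplasm. MEF P-body replicate 1 held reads of 19187 genes and replicate 2 of 17483, against 16821 to 17537 in the other libraries. The part of reads from such genes in the results was not tested. Replicates are separate samples by their titles. The p-values rest on 1 estimate of the spread between replicates per gene, shared by the 4 groups, although the naive cytoplasm pair was more spread.

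P-body contents differed widely between the cell types. Among the 9307 genes expressed in both, 3306 had a higher enrichment in naive cells (35.5%) and 2754 a higher enrichment in MEFs (29.6%), 65.1% in all (edgeR quasi-likelihood test of the interaction, adjusted p under 0.05). Over all 18143 genes tested the difference was called for 41.3%, with 21.5% higher in naive cells and 19.8% higher in MEFs. The difference exceeded 2 on the log2 scale for 801 genes called higher in naive cells and 360 called higher in MEFs. Each library is a bulk fraction, so fewer particles that hold a transcript and fewer molecules per particle cannot be told apart. The median difference was 0.10 with the scaling used here and rose to 0.30 to 0.38 when a MEF library was left out. The higher-in-MEF count moved with it, to 1714 without MEF cytoplasm replicate 1 and 1778 without MEF cytoplasm replicate 2, and it was 1934 without MEF P-body replicate 1. With no filter on low counts the scaling shifted in the same way, to a median of 0.35 and to 3946 genes higher in naive cells against 2134 higher in MEFs, or 64.9% of calls in the naive direction against 54.6%. Differences of gene lists are therefore also given relative to the median of all genes expressed in both.

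Enrichment in one cell type was nearly uncorrelated with enrichment in the other. Across the 9307 genes the Pearson correlation of the 2 enrichments was 0.04 and the Spearman correlation 0.01, a description across genes, which are not independent replicates. The ratios share no library. In naive cells 2634 genes were enriched (28.3%) and 3282 depleted (35.3%). The naive depleted count was 1683 and 1685 without MEF cytoplasm replicate 1 or 2, 2041 and 2036 without MEF P-body replicate 1 or 2, and 1944 and 2001 without naive P-body replicate 1 or 2. In MEFs 2737 were enriched (29.4%) and 3261 depleted (35%). Of the genes enriched in naive P-bodies, 32.9% were depleted from MEF P-bodies, near the 35% of all genes expressed in both. Enriched in MEFs were 23.7% of them, against 29.4% of all. Of the genes enriched in MEF P-bodies, 40.8% were depleted from naive P-bodies, against 35.3% of all. Enriched in naive cells were 22.8% of them, against 28.3% of all.

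**Figure D1:**
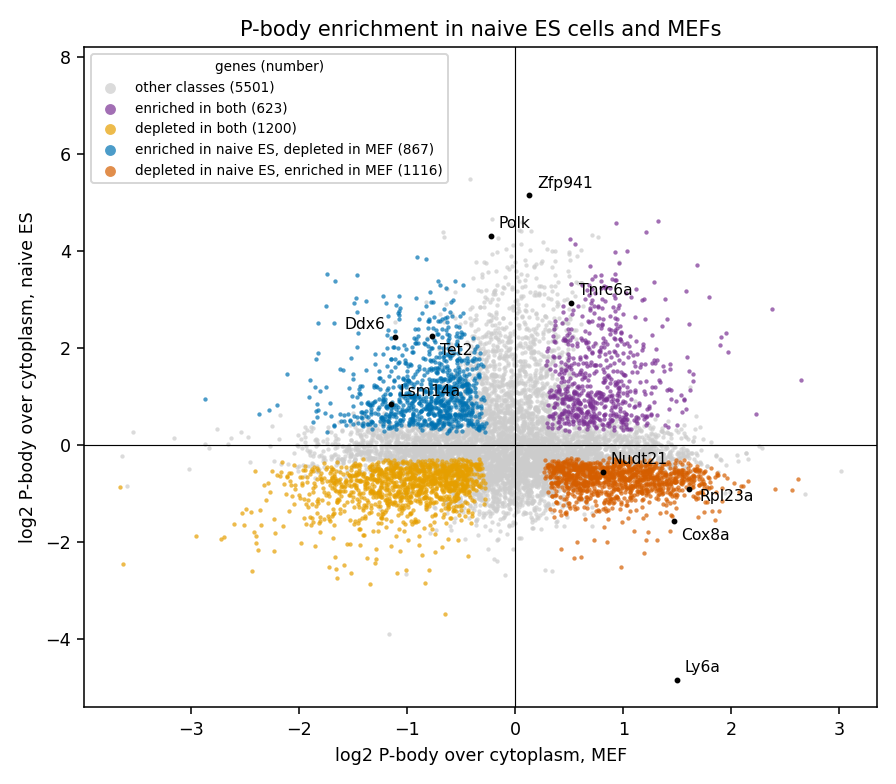
Each point is 1 of the 9307 genes expressed in both cell types, with log2 P-body over cytoplasm in MEFs on the horizontal axis and in naive ES cells on the vertical axis. Colours mark genes called in both cell types: 867 in the upper left quadrant and 1116 in the lower right had opposite enrichment, and 623 in the upper right and 1200 in the lower left had like enrichment.

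A total of 867 genes were enriched in naive P-bodies and depleted from MEF P-bodies, and 1116 genes showed the reverse. The difference itself was called for all 867 and all 1116. Opposite calls in 1 fit make that call nearly certain, so it adds no support. These counts depended on single libraries: the 867 became 575 without naive P-body replicate 1, and the 1116 became 409 without MEF cytoplasm replicate 1, 429 without MEF cytoplasm replicate 2, 556 and 578 without either MEF P-body library and 591 and 623 without either naive P-body library. A further 623 genes were enriched in both cell types, 413 without naive P-body replicate 2 and 410 without MEF cytoplasm replicate 1. Depleted in both were 1200, which fell to 549 and 583 without either MEF cytoplasm library, 785 and 723 without either MEF P-body library and 725 and 719 without either naive P-body library.

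Gja1, which encodes the gap junction protein connexin 43, had the largest difference of the 6 genes named for a switch from enriched in naive cells to depleted in MEFs (chromosome 10, 56377330 to 56402513, mm10). It stood at 34.8 and 37.2 CPM in naive P-bodies and at 2.19 and 4.08 CPM in naive cytoplasm. In MEFs, the P-body libraries held 75.3 and 66.0 CPM and the cytoplasm libraries 235 and 237 CPM. The P-body libraries were thus the higher ones in naive cells and the lower ones in MEFs. Opposite enrichment is what these genes were chosen for, and the single-library enrichments of the 2 cell types did not overlap for 80.1% of all genes expressed in both. The log2 enrichment was 3.52 ± 0.21 (SE) in naive cells and −1.74 ± 0.16 in MEFs, a difference of 5.26 ± 0.27 (edgeR adjusted p = 6.60e-06).

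Flrt3, a leucine-rich repeat membrane protein, followed the same pattern (chromosome 2, 140650914 to 140671469). Its level was 64.6 and 71.2 CPM in naive P-bodies, 6.78 and 6.26 CPM in naive cytoplasm, 16.4 and 24.3 CPM in MEF P-bodies and 62.9 and 66.5 CPM in MEF cytoplasm. The P-body libraries were the high ones in naive cells and the cytoplasm libraries in MEFs. Slfn9, a Schlafen family member, stood at 177 and 164 CPM in naive P-bodies, 20.4 and 26.2 CPM in naive cytoplasm, 7.21 and 14 CPM in MEF P-bodies and 35.9 and 35.7 CPM in MEF cytoplasm. Adgrl2, which encodes the adhesion receptor latrophilin 2, stood at 84.2 and 81.3, 11.2 and 17.6, 30.0 and 34.9 and 107 and 101 CPM in the same order. The differences were 5.05 ± 0.27 for Flrt3, 4.62 ± 0.36 for Slfn9 and 4.20 ± 0.26 for Adgrl2. A further pair of this class was named by the same rule, the zinc finger gene Rlf at 3.19 ± 0.16 and Cep170, which encodes a centrosomal protein, at 3.13 ± 0.17, both with an edgeR adjusted p of 6.60e-06. Rlf stood at 249 and 213 CPM in naive P-bodies and 75.5 and 79.3 CPM in naive cytoplasm, against 44.5 and 48.5 CPM and 144 and 141 CPM in MEFs.

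In the opposite direction, Ly6a, which encodes the surface antigen Sca-1, had the difference largest in size of all named genes at −6.33 ± 0.22 (edgeR adjusted p = 2.93e-06; chromosome 15, 74994877 to 74998031). It stood at 0.779 and 0.744 CPM in naive P-bodies and 23.6 and 20.4 CPM in naive cytoplasm. In MEFs, where it was far more abundant, the P-body libraries held 811 and 755 CPM and the cytoplasm libraries 267 and 289.8 CPM. Ly6a was therefore depleted in naive cells (−4.84 ± 0.19) and enriched in MEFs (1.49 ± 0.11). Vamp8, a SNARE protein of membrane fusion, stood at 13.7 and 12.8 CPM in naive P-bodies against 39.3 and 34.3 CPM in naive cytoplasm, and at 329 and 278 CPM in MEF P-bodies against 85.9 and 102 CPM in MEF cytoplasm.

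Both subunits of cytochrome c oxidase in this group were abundant in all libraries. Cox8a stood at 191 and 187 CPM in naive P-bodies and 485 and 628 CPM in naive cytoplasm, and at 369.9 and 372 CPM in MEF P-bodies and 131 and 138 CPM in MEF cytoplasm. Cox6a1 stood at 346 and 341, 889 and 965, 602 and 574 and 204 and 229 CPM in the same order. The differences were −3.02 ± 0.18 and −2.87 ± 0.14. Both transcripts are short and GC-rich (550 bases and 58.5% GC; 571 bases and 58.8% GC), and with smooth trends of length and GC content taken out of each library the differences were −0.44 and −0.29 (edgeR adjusted p = 0.0313 and 0.116). Avpi1 and the lipocalin receptor gene Slc22a17, which complete the group, had differences of −3.40 ± 0.28 and −2.90 ± 0.25 and kept −1.36 and −1.62 with these trends taken out.

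**Figure D2:**
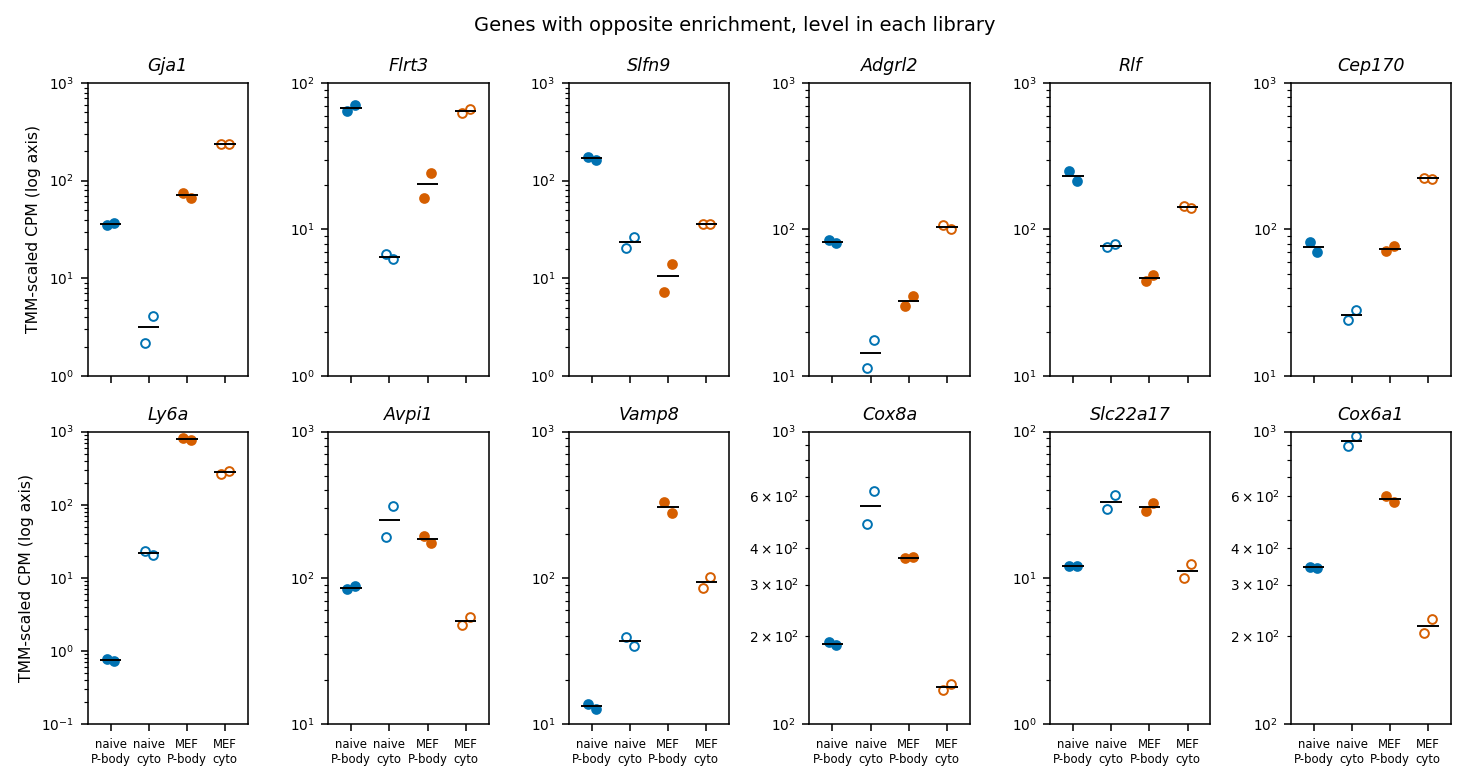
TMM-scaled CPM (logarithmic axes) of 12 genes of opposite enrichment in the 8 libraries; points are single libraries, filled for P-body and open for cytoplasm, blue for naive ES cells and orange for MEFs, and bars are group means. In the upper row the filled points lie above the open ones in naive cells and below them in MEFs, and in the lower row the order is reversed. The genes were chosen for this opposite order.

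Genes enriched in both cell types had other leading members. Srek1ip1 stood at 59.6 and 59.7 CPM in naive P-bodies and 5.47 and 8.89 CPM in naive cytoplasm, against 60.0 and 73.2 CPM and 17.0 and 21.5 CPM in MEFs. Its enrichment was 3.05 ± 0.23 and 1.79 ± 0.20. It was still higher in naive cells, by 1.26 ± 0.30. Fam133b was enriched by 2.30 and 1.95, Taf1d by 1.92 and 1.97, and Gm36712 by 2.07 and 1.89. Their differences of 0.35 ± 0.28, −0.04 ± 0.23 and 0.17 ± 0.28 did not pass the test, and the sign of the last 2 changed under other settings. Depleted in both were the receptor genes Adgra2 (−2.59 in naive cells and −2.43 in MEFs) and Ephb2 (−2.16 and −2.38), Prag1 (−2.17 and −2.23) and Ddit4, an inhibitor of mTORC1 signalling (−2.01 and −2.39). Their differences of −0.15 ± 0.39, 0.21 ± 0.31, 0.06 ± 0.36 and 0.39 ± 0.28 had adjusted p of 0.325 to 0.968 by edgeR, and differences of the size of their SEs were not detectable here. Ddit4 passed without MEF P-body replicate 1 (0.89) and with length and GC trends taken out (1.82, adjusted p = 0.000711 by edgeR).

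Some of the largest differences in the naive direction belonged to transcripts with few reads in naive cytoplasm. Lpar4, a receptor for lysophosphatidic acid, stood at 34.2 and 31.7 CPM in naive P-bodies and 0.0729 and 1.38 CPM in naive cytoplasm, where these levels rest on 1 and 19 reads. In MEFs, the P-body libraries held 23.0 and 29.3 CPM and the cytoplasm libraries 32.8 and 37.2 CPM. Its difference of 5.90 ± 0.58 ranged from 4.98 to 9.12 when single libraries were left out, the highest value without naive cytoplasm replicate 2. The kinase gene Pak3 behaved alike, at 21.8 and 23.8 CPM in naive P-bodies and 0.0729 and 0.947 CPM in naive cytoplasm, with a difference of 5.0 ± 0.48 and a range of 4.11 to 7.71. Zfp941, a zinc finger gene, was the most abundant of this group, at 1515 and 1531 CPM in naive P-bodies and 18.5 and 67.4 CPM in naive cytoplasm, whereas in MEFs 40.2 and 50.9 CPM in P-bodies and 42.5 and 40.7 CPM in cytoplasm overlapped. The nuclear receptor gene Rora (5.06 ± 0.45), the zinc finger gene Bnc2 (4.98 ± 0.45) and the kinase gene Pdik1l (4.95 ± 0.52) completed the 8 largest with Gja1 and Flrt3.

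In the MEF direction the largest differences after Ly6a belonged to Id3, an inhibitor of basic helix-loop-helix factors (−3.69 ± 0.53), Erdr1 (−3.55 ± 0.35), Nnmt, nicotinamide N-methyltransferase (−3.50 ± 0.32), the snoRNA host Snhg20 (−3.48 ± 0.31), Crip1, a LIM domain protein (−3.41 ± 0.33), Avpi1 (−3.40 ± 0.28) and Car8, a carbonic anhydrase-related protein (−3.32 ± 0.29). Id3 stood at 636 and 708 CPM in MEF P-bodies and 109 and 102 CPM in MEF cytoplasm, but at 10.2 and 8.63 CPM in naive P-bodies and 9.34 and 28.6 CPM in naive cytoplasm, where the replicates were far apart. Nnmt stood at 77.9 and 69.7 CPM in MEF P-bodies and 36.7 and 38.3 CPM in MEF cytoplasm, against 5.02 and 5.28 CPM and 37.2 and 21.9 CPM in naive cells. With the length and GC trends taken out, Erdr1 fell to −0.51 (edgeR adjusted p = 0.227), and the other 7 genes kept their call, from −1.2 for Crip1 to −4.86 for Ly6a. Rn45s, the ribosomal RNA precursor and no messenger RNA, was not named by the rule and was chosen after its values were seen. It stood at 25801 and 27611 CPM in MEF P-bodies, 4696 and 5371 CPM in MEF cytoplasm, 1500.0 and 1537 CPM in naive P-bodies and 3056 and 2597 CPM in naive cytoplasm, a difference of −3.30 ± 0.15.

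Transcripts that encode P-body proteins did not move as a group. Of 18 core and decapping genes expressed in both, 7 were higher in naive cells and 8 in MEFs, against 35.5% and 29.6% of all such genes. Ddx6, the helicase on which P-body assembly depends (chromosome 9, 44604892 to 44640731), stood at 111 and 95.9 CPM in naive P-bodies and 16.8 and 27.0 CPM in naive cytoplasm, and at 73.2 and 51.9 CPM in MEF P-bodies and 139.7 and 131 CPM in MEF cytoplasm. Its mRNA was thus enriched in naive P-bodies (2.24 ± 0.23) and depleted from MEF P-bodies (−1.12 ± 0.21), a difference of 3.35 ± 0.31 (edgeR adjusted p = 3.17e-05). Lsm14a showed the same switch (0.85 and −1.15, difference 2.0 ± 0.14), but its reads may include those of the GFP-LSM14A transgene, which cannot be told apart in these counts. The scaffold gene Edc4 was depleted in both, at −0.77 and −1.03, and its difference of 0.26 ± 0.21 did not pass the test (adjusted p = 0.377 by edgeR), although it did without naive cytoplasm replicate 1 (0.51). Lsm4 and Lsm7, small subunits of the LSm ring that binds the 3′ ends of mRNAs before decapping, went the other way (−2.50 ± 0.25 and −2.48 ± 0.16). With length and GC trends taken out, Ddx6 kept 2.41, whereas Lsm4 came to −0.18 and Lsm7 to −0.64.

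Deadenylation and microRNA factors were called more often in the naive than in the MEF direction. Of 18 CCR4-NOT and deadenylation genes 8 were higher in naive cells and 3 in MEFs, led by the catalytic subunits Cnot6 (3.95 ± 0.35) and Cnot6l (3.25 ± 0.22). Of 12 microRNA pathway genes 8 were higher in naive cells and 2 in MEFs, and the shares over all genes were 35.5% and 29.6%. With length and GC trends taken out, the median relative to all genes went from 0.45 to −0.01 for the deadenylation genes, of which 8 were called higher in naive cells, and from 0.59 to 0.10 for the microRNA genes, of which 4 were. Of the 9257 genes expressed in both with known length and GC content, 3544 were then higher in naive cells and 1057 in MEFs. These are the background for all list counts with the trends taken out. Tnrc6a, which encodes the GW182 protein that links Argonaute to deadenylation, stood at 302 and 286 CPM in naive P-bodies and 27.9 and 49.0 CPM in naive cytoplasm, and at 191 and 224 CPM in MEF P-bodies and 144 and 145 CPM in MEF cytoplasm. It was enriched in naive P-bodies (2.93 ± 0.22), its MEF enrichment of 0.52 ± 0.20 did not pass the test, and the difference was 2.41 ± 0.30 (edgeR adjusted p = 0.000147). Ago2, the Argonaute protein with slicer activity, went from 0.53 ± 0.14 in naive cells to −1.07 ± 0.14 in MEFs, a difference of 1.6 ± 0.20.

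Transcripts of 3′ UTR-binding regulators followed. Of 22, 15 were higher in naive cells and 1 in MEFs, with a median difference of 0.93. Cpeb4, a cytoplasmic polyadenylation element-binding protein, was higher in naive cells (2.87 ± 0.36), and Tial1 was higher in MEFs (−1.13 ± 0.19). With length and GC trends taken out, the counts were 10 and 4 and the median lay at that of all genes (0.00 relative to it). Of 20 cleavage and polyadenylation genes 11 were higher in naive cells and 2 in MEFs, against 35.5% and 29.6% of all genes, and their median relative to all genes went from 0.68 to 0.02 with the trends taken out. Nudt21, which encodes the cleavage factor subunit that favours distal polyadenylation sites, was one of the latter: it stood at 102 and 108 CPM in naive P-bodies and 186 and 119.6 CPM in naive cytoplasm, and at 124 and 106 CPM in MEF P-bodies and 64.2 and 67.2 CPM in MEF cytoplasm. Its difference was −1.35 ± 0.26 (edgeR adjusted p = 0.00219) and −2.31 with the trends taken out.

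Transcripts of ribosomal proteins, the respiratory chain and the proteasome lay more in P-bodies of MEFs. All 82 cytosolic ribosomal protein genes had a higher enrichment in MEFs, against 29.6% of all genes. Their median enrichment was −0.63 in naive cells and 1.37 in MEFs, and 73 of the 82 were depleted in naive cells and 82 enriched in MEFs. The differences ran from −2.51 for Rpl23a to −0.68 for Rpl4, which lost its call without MEF cytoplasm replicate 1 or 2 (−0.42 and −0.45). Between the cell types the median cytoplasmic level of these genes differed by 0.26 (log2, naive over MEF) and the median P-body level by −1.78. The P-body levels thus differed more between the cell types than the cytoplasmic levels. Of 79 genes of the respiratory chain and ATP synthase 76 were higher in MEFs, with medians of −0.70 and 1.32. Mitochondrial ribosomal proteins (65 of 78 higher in MEFs, 1 in naive cells) and proteasome subunits (28 of 35 and 2 of 35) followed. Aminoacyl-tRNA synthetases, which charge tRNAs, did not: 1 of 20 was higher in MEFs and 3 in naive cells. Of 59 translation initiation and elongation factors 30 were higher in MEFs and 15 in naive cells, and of 17 TCA cycle genes 9 and 3. Of the ribosomal protein genes 0 were higher in naive cells by edgeR, 0 at an unadjusted p under 0.05 and 0 by DESeq2, and of the respiratory chain genes 0, 1 and 1.

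These genes have short transcripts, with a median of 896.5 bases for cytosolic ribosomal proteins against 3161 bases for all genes expressed in both. With length and GC trends taken out of each library, 28 ribosomal protein genes were higher in MEFs and 7 in naive cells. Of the 9257 genes with known length and GC content expressed in both, 1057 and 3544 were. Rpl4 turned to 0.24, and the median difference of the list relative to all genes went from −2.15 to −0.63. The respiratory chain went from 76 to 23 called higher in MEFs, mitochondrial ribosomal proteins from 65 to 23 and the proteasome from 28 to 7. The direction of these 4 medians relative to all genes was the same with offsets, at −0.59, −0.47 and −0.44 for the last 3. Length and function cannot be told apart in these lists.

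Replication-dependent histone genes have mRNAs that end in a stem-loop and mostly lack a poly(A) tail. The paper treats Smart-seq as poly(A)-directed, so such mRNAs may be missed and the values may describe only a part of their RNA. The list of these genes, which also holds the replacement histone H1f0, had a median enrichment of −0.78 in naive cells and 2.05 in MEFs. Of 14 expressed in both, 12 were higher in MEFs, from −3.03 for H2ac7 upward, and H1f0, a replacement linker histone, was at 0.40 ± 0.21 and did not pass the test, although it did without naive cytoplasm replicate 2 or MEF P-body replicate 1 (0.59 and 0.85). None was higher in naive cells by edgeR, 0 at an unadjusted p under 0.05 and 0 by DESeq2. Histone genes are near-identical copies, so their counts are uncertain. Their median was −0.09 relative to all genes with the trends taken out, where 12 of the 14 were tested, 1 was called in each direction and the median itself turned positive (0.28). Of 13 RNA polymerase II subunits 9 were higher in MEFs and 2 in naive cells, with the small subunits Polr2l (−2.54 ± 0.26) and Polr2i (−2.30 ± 0.27) at one end and the second largest subunit Polr2b (1.28 ± 0.15) at the other. The median of this list turned positive under the offsets (0.14), as did those of Mediator, translation factors, the TCA cycle and actins, tubulins and partners. Of 13 small nucleolar RNA (snoRNA) hosts 12 were higher in MEFs, with a median of −1.68 relative to all genes and of −1.33 with the trends taken out. Gas5, a noncoding host, was enriched in MEF P-bodies (1.33 ± 0.15) with a difference of −1.11 ± 0.22 that lost its call without MEF cytoplasm replicate 1 (−0.70), and Snhg14 was the 1 host higher in naive cells (1.35 ± 0.15), although it turned to −0.82 under the offsets.

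The naive direction was led by zinc finger genes. Of 265 numbered Zfp genes expressed in both, 192 had a higher enrichment in naive cells and 23 in MEFs, against 35.5% and 29.6% of all genes. Many of these genes encode KRAB zinc finger repressors, which bind retroelements and other DNA targets. The median enrichment was 1.81 in naive cells and −0.04 in MEFs, so that in MEFs the median gene of the list lay near 0. Their median level, naive over MEF, was −0.93 in cytoplasm and 0.87 in P-bodies (log2). Zfp300, at 16.1 and 13.6 CPM in naive P-bodies and 0.219 and 0.947 CPM in naive cytoplasm, had an enrichment of 4.65 ± 0.40 in naive cells and of −0.22 ± 0.24 in MEFs. At the other end, Zfp653 (−2.13 ± 0.41) and Zfp414 (−2.01 ± 0.16) were higher in MEFs. With length and GC trends taken out, 192 were again called higher in naive cells and 6 in MEFs, at a median of 0.94 relative to all genes against 1.73 before. Zinc finger genes share repeated sequence, and reads divided between copies make single values uncertain.

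Chromatin regulators differed by group, against the background of 35.5% higher in naive cells and 29.6% in MEFs. Of 17 histone lysine demethylases 14 were higher in naive cells and 1 in MEFs, of 20 CHD and ISWI remodellers 15 and 1, of 17 genes of H3K4 methyltransferase complexes 9 and 2, and of 14 DNA methylation and demethylation genes 7 and 3. Polycomb complexes (11 and 4 of 27) and the BAF remodelling complex (8 and 4 of 20) lay near that background in the naive direction, with medians of 0.10 and 0.06 relative to all genes. Tet2, which oxidises methylated cytosine (chromosome 3, 133463679 to 133545139), stood at 996 and 845 CPM in naive P-bodies and 139.8 and 246 CPM in naive cytoplasm, and at 29.6 and 31.4 CPM in MEF P-bodies and 50.9 and 52.8 CPM in MEF cytoplasm. It was enriched in naive cells (2.25 ± 0.22) and depleted in MEFs (−0.77 ± 0.22), with a difference of 3.02 ± 0.31 (edgeR adjusted p = 5.58e-05). Dnmt1, the maintenance DNA methyltransferase, differed by 2.32 ± 0.14, depleted in MEFs (−2.18) and near 0 in naive cells (0.14). Kdm7a (3.20 ± 0.40), Ash1l (3.83 ± 0.45), Baz2b (3.49 ± 0.33) and Chd2 (3.37 ± 0.21) led the other lists. Kmt2d, an H3K4 methyltransferase with a long GC-rich mRNA (19823 bases and 58.4% GC), was depleted by −1.47 in naive cells and −1.24 in MEFs, and its difference of −0.23 ± 0.19 did not pass the test (adjusted p = 0.397 by edgeR). Trim28, the corepressor of KRAB zinc finger proteins, was higher in MEFs (−1.09 ± 0.14). Dpy30, a small subunit of the H3K4 complexes, was as well (−1.83 ± 0.16). With the trends taken out, the naive-higher counts became 11 of 17, 11 of 20, 11 of 17 and 8 of 14, and 9 of 27 and 10 of 20 for Polycomb and BAF. The background was then 3544 of 9257 genes.

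DNA repair genes were mostly higher in naive cells, against 35.5% of all genes higher in naive cells and 29.6% in MEFs. Of 47 DNA damage response genes 29 were higher in naive cells and 5 in MEFs, with Lig4, the ligase of end joining, at 3.79 ± 0.25 and Ercc1, a small nucleotide excision repair subunit, at −1.37 ± 0.18, which turned to 0.37 with the trends taken out. Polk, a translesion polymerase, stood at 817 and 816 CPM in naive P-bodies and 15 and 67.5 CPM in naive cytoplasm. In MEFs, the P-body libraries held 163 and 196 CPM and the cytoplasm libraries 213 and 206 CPM. Its enrichment was 4.31 ± 0.53 in naive cells, where the cytoplasm replicates differed several-fold, and −0.23 ± 0.46 in MEFs, a difference of 4.53 ± 0.68 (edgeR adjusted p = 0.000518). Of the 8 translesion polymerase genes 6 were higher in naive cells, and Mad2l2, a small accessory subunit, was the 1 higher in MEFs (−1.96 ± 0.17). Of 30 genes of the centromere and spindle checkpoint 15 were higher in naive cells and 8 in MEFs. With length and GC trends taken out, 24 DNA damage response genes were called higher in naive cells and 3 in MEFs. Their median relative to all genes went from 0.75 to 0.26. For the centromere and spindle checkpoint the counts became 16 and 4, and this median went from 0.55 to 0.27.

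Of 41 centrosome genes 31 were higher in naive cells and 0 in MEFs by edgeR, with 1 higher in MEFs at an unadjusted p under 0.05 and 0 by DESeq2. Their medians were 0.50 in naive cells and −0.64 in MEFs. Sass6 (3.69 ± 0.21) and Stil (3.27 ± 0.21), both needed to start a new centriole, led the list, and Plk4, the kinase that triggers that step, was at 2.51 ± 0.18. Of 22 kinesins 16 were higher in naive cells, led by Kif20b (4.13 ± 0.42), and 0 in MEFs by edgeR, 0 at an unadjusted p under 0.05 and 0 by DESeq2. With the trends taken out, 24 of 41 and 12 of 22 were called higher in naive cells. Ubiquitin-specific proteases gave 25 of 39 higher in naive cells and 2 in MEFs, with Usp53 at 3.72 ± 0.33, and 19 of 39 with the trends taken out. The median of the proteases relative to all genes went from 0.79 to 0.10. Over all genes expressed in both, 35.5% were higher in naive cells and 29.6% in MEFs, the background for each of these lists.

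**Figure D3:**
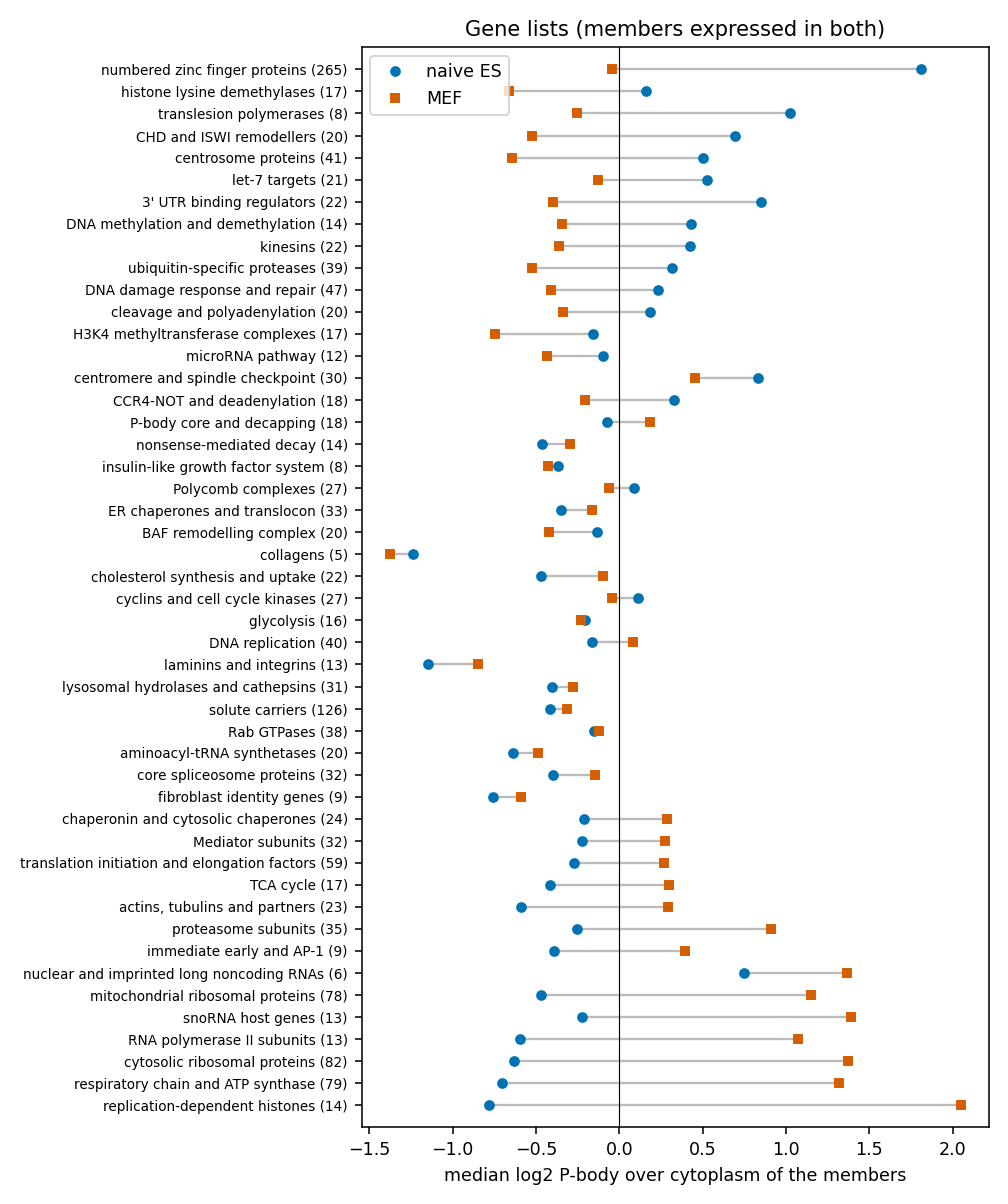
Median log2 P-body over cytoplasm of the members of 48 gene lists in naive ES cells (blue circles) and MEFs (orange squares), with the number of members expressed in both cell types in parentheses, ordered by the median difference. Zinc finger, demethylase and translesion genes lie at the top with the naive median to the right, and histone, respiratory chain and ribosomal protein genes at the bottom with the MEF median to the right.

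Of 48 lists with at least 5 members expressed in both, 13 had over 50% of their members called higher in naive cells and 12 over 50% called higher in MEFs. Several lists sat near the background in both directions: Rab GTPases (13 of 38 higher in naive cells and 13 in MEFs), solute carriers (33 of 126 in each direction), DNA replication (11 and 15 of 40), cyclins and cell cycle kinases (9 and 6 of 27) and cholesterol synthesis and uptake (8 and 9 of 22). For glycolysis the trends mattered: 6 of 16 were higher in naive cells and 2 in MEFs, but 13 and 0 with length and GC content taken out. The background was then 3544 and 1057 of 9257 genes. Gapdh moved from −0.52 ± 0.14 to 1.11 (edgeR adjusted p = 0.0168 and 0.000249), so its direction depended on this choice, and its call was lost without any 1 MEF library or naive P-body replicate 2 (−0.24 to −0.45). Actb had a difference of 0.22 ± 0.16 that did not pass the test (adjusted p = 0.337 by edgeR), 0.66 and called without MEF P-body replicate 1, and of 1.04 with the trends taken out (adjusted p = 0.0012). Of 5 collagens 3 were depleted in naive cells and 5 in MEFs, with medians of −1.24 and −1.37, and Col18a1 was the 1 member called (2.11 ± 0.25).

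Genes of cell identity were mostly expressed in 1 cell type and therefore fall outside the comparison. Of the naive pluripotency factors 4 were expressed in both. Klf5 (1.5 ± 0.21) and Tbx3 (2.55 ± 0.28) were higher in naive cells, Klf2 was higher in MEFs (−1.05 ± 0.22) but turned to 0.55 with the trends taken out and lost its call without MEF P-body replicate 2 or MEF cytoplasm replicate 1 (−0.72 and −0.80), and Klf4 was at −0.48 ± 0.25 and did not pass the test (adjusted p = 0.159 by edgeR), although it did without naive cytoplasm replicate 2 (−0.72). Of 9 fibroblast identity genes 3 were higher in naive cells and 3 in MEFs, with a median of −0.32 relative to all genes. Zeb1 (3.28 ± 0.35) and Cdh2 (2.93 ± 0.32) were higher in naive cells, and Timp1 (−1.93 ± 0.30) and Ccn2, a matricellular growth factor gene (−1.53 ± 0.28), in MEFs. Zeb1, a repressor of epithelial genes, stood at 142 and 130.1 CPM in naive P-bodies and 13.9 and 28 CPM in naive cytoplasm. Cdh2, the mesenchymal cadherin, stood at 8.48 and 8.04 CPM and 1.46 and 3.35 CPM there. Igf2 was at or under 0.584 CPM in every naive library, and in MEFs at 0.297 and 0.540 CPM in P-bodies against 24.2 and 24.5 CPM in cytoplasm, an enrichment of −5.84 ± 0.39. Igfbp5 was as unevenly spread in MEFs, at 4.96 and 5.11 CPM in P-bodies and 143 and 137 CPM in cytoplasm, and at or under 1.46 CPM in naive cells. Igf2r (1.18 ± 0.25) and Grb10 (1.6 ± 0.17), which were expressed in both, were higher in naive cells, with −1.32 and −0.22 in naive cells against −2.49 and −1.82 in MEFs, and Igfbp7 was higher in MEFs (−2.85 ± 0.29).

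The classes of genes differed in the length and GC content of their transcripts. Length and GC content of the longest GENCODE transcript were available for 9257 of the 9307 genes. The 867 genes enriched in naive and depleted from MEF P-bodies had a median length of 4946 bases and a median GC content of 45.4%, against 1422 bases and 54.3% for the 1116 genes of the opposite class. Medians for all genes expressed in both were 3161 bases and 49.8%. The 623 genes enriched in both cell types had the lowest GC content, 42.4%, at 2892 bases, and the 1200 depleted in both had 54.3% at 4029.5 bases. Median 3′ UTR length was 2321 bases in the first class and 334 bases in the second.

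Across all genes together, naive enrichment went mainly with GC content and MEF enrichment mainly with length. The Spearman correlation with GC content was −0.70 for the naive enrichment and −0.06 for the MEF enrichment. The correlation with length was 0.29 and −0.60. The difference therefore correlated with both, at 0.63 with length and −0.49 with GC content, and over the 16 pairings of single libraries these values ran from 0.59 to 0.64 and from −0.52 to −0.42. Coding length (0.50) and 3′ UTR length (0.47) gave lower correlations with the difference than the whole transcript, and 5′ UTR length (0.16) and 5′ UTR GC content (−0.05) were weak. The count of the AU-rich motif ATTTA in the 3′ UTR, searched on the transcript strand with overlaps, correlated at 0.47 with the difference, and its density per kilobase at 0.28. Genes share these features, and all of the correlations are descriptions across genes of the same 8 libraries.

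Genes were divided into 5 equal bins by length. In the bin of shortest transcripts, up to 1800.4 bases, 78.1% of genes were called higher in MEFs and 4.05% higher in naive cells. In the bin of longest transcripts, from 5168 bases, 5.94% and 65.4% were. In the lowest of 5 such bins of GC content, 65.6% were higher in naive cells and 11.4% in MEFs, and in the highest 7.88% and 52.2%. Both trends of the difference were present within each other. Its correlation with GC content was −0.31 to −0.47 within the length bins, and with length 0.43 to 0.67 within the GC bins. The MEF enrichment alone also went with GC content among transcripts of like length. That correlation was −0.03 in the bin of shortest transcripts, −0.30 in the next bin and −0.40 in the bin of longest ones. The median difference was highest for long, GC-poor transcripts (1.67 over 578 genes) and lowest for short, GC-rich ones (−1.43 over 562 genes). In MEFs the short transcripts were enriched at every GC content, by a median of 0.75 to 0.95, whereas in naive cells the long, GC-poor transcripts reached 1.4.

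**Figure D4:**
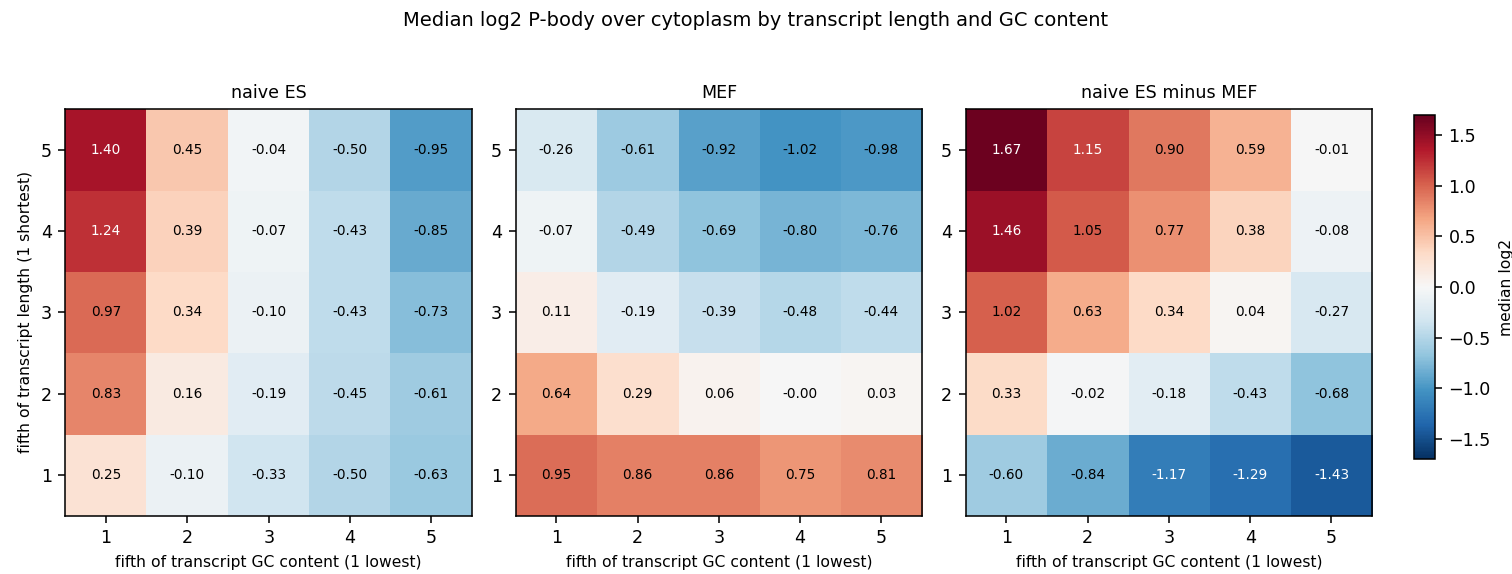
Median log2 P-body over cytoplasm in naive ES cells, in MEFs, and the median difference, for the genes expressed in both cell types in 5 by 5 bins of transcript GC content (horizontal) and length (vertical). In naive cells the colour changes mainly from left to right, in MEFs mainly from bottom to top, and the difference runs along the diagonal from −1.43 to 1.67.

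With smooth trends of GC content and length fitted in each library and used as offsets, 3544 genes were higher in naive cells and 1057 in MEFs, and 77.0% of the calls were in the naive direction against 54.6% before. The median difference under the offsets was 0.37. Of the 6060 genes called without offsets, 3193 were called in the same direction with them and 352 in the opposite one. Such offsets also remove any real difference that goes with length or GC content. Of the 48 lists with at least 5 members, 6 had a median over 0.5 above that of all genes both before and after, a limit chosen after the values were seen. These were the zinc finger genes (1.73 and 0.94), histone lysine demethylases (1.32 and 0.57), translesion polymerases (1.2 and 0.87), DNA methylation genes (0.82 and 0.73), kinesins (0.80 and 0.55) and H3K4 methyltransferase complexes (0.66 and 0.66). The 4 lists over 0.5 below it both times were the cytosolic ribosomal proteins (−2.15 and −0.63), the respiratory chain (−2.22 and −0.59), the snoRNA hosts (−1.68 and −1.33) and 6 nuclear and imprinted long noncoding RNAs (−1.21 and −1.91). Of these 6, 4 were higher in MEFs, among them Meg3 (−2.32 ± 0.41) and Neat1 (−1.56 ± 0.18), and Rian (1.18 ± 0.36) was higher in naive cells. Rian lost its call without naive P-body replicate 1 or 2 or MEF P-body replicate 2 (1.11, 1.25 and 1.25) and was at −0.64 with the trends taken out.

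**Figure D5:**
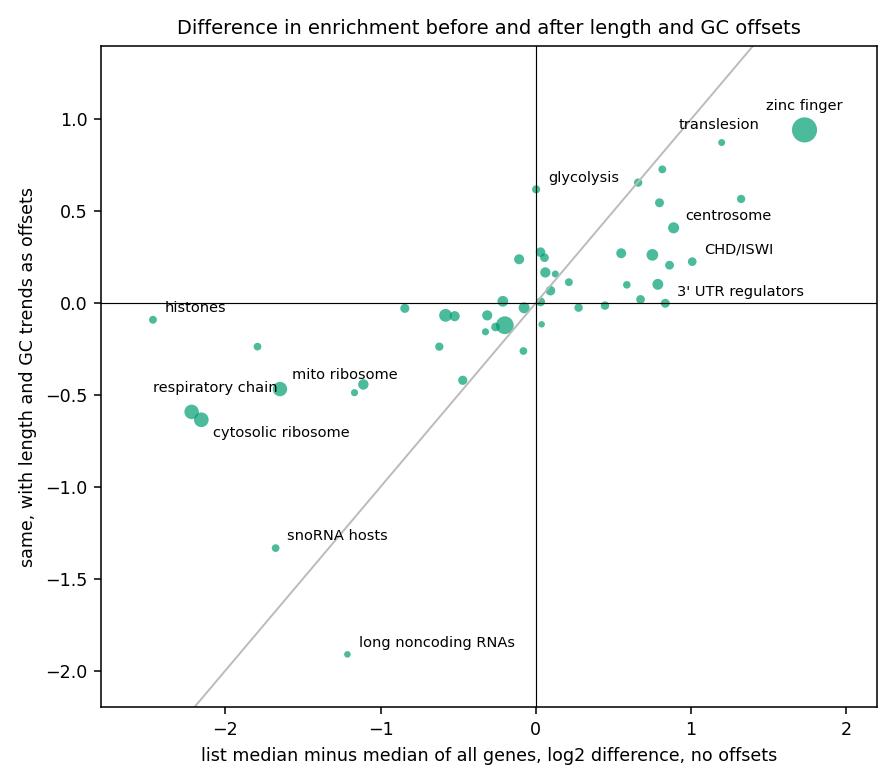
Each point is 1 of 48 gene lists, sized by its number of members, with its median log2 difference (naive ES minus MEF) relative to the median of all genes expressed in both cell types, without offsets on the horizontal axis and with length and GC trends as offsets on the vertical axis; the grey line marks equal values. Most lists lie closer to 0 on the vertical axis, among them the cytosolic ribosome at −2.15 and −0.63, and the snoRNA hosts stay near the line.

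MicroRNAs bind sites in 3′ UTRs that pair with their seed, and their machinery is part of P-bodies. The study relates let-7, miR-300 and miR-381 to P-body contents, and 8 microRNAs were therefore searched. The mature sequences (RefSeq, GRCm38.p6) that matter most below are shown with the seed, bases 2 to 8, in capitals.
let-7a-5p: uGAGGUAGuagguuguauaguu
miR-300-3p: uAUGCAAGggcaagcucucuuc
miR-381-3p: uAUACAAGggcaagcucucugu
miR-294-3p: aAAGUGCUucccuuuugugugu
miR-21a-5p: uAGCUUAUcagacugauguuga
let-7 is abundant in differentiated cells, miR-294 belongs to the cluster typical of ES cells, and miR-21a is abundant in fibroblasts. Each search looked for the 7 letters that pair with the seed, CTACCTC for let-7, CTTGCAT for miR-300, CTTGTAT for miR-381, AGCACTT for miR-294 and ATAAGCT for miR-21a, on the transcript strand of the 3′ UTR of the longest transcript. A match is not evidence of binding.

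Genes with a match had the higher median difference for all 8 microRNAs. A let-7 match was found in 941 of 9050 genes with a 3′ UTR (10.4%), and the median difference was 0.48 with a match and 0.05 without. For miR-300 (10.2% of genes) the values were 0.76 and 0.03, for miR-381 (13.5%) 0.79 and −0.01, for miR-294 (18.3%) 0.76 and −0.04, and for miR-21a (7.83%) 0.87 and 0.03. Longer 3′ UTRs hold more matches, so the genes were also split into 3 equal bins of 3′ UTR length. Within the long bin the let-7 values were 0.79 with a match and 0.77 without, and in the middle bin 0.07 and 0.18. For miR-300 the long bin gave 1.08 and 0.72, for miR-381 1.09 and 0.69, for miR-294 0.98 and 0.70, and for miR-21a 1.09 and 0.73. In the long bin, the 3′ UTRs with a miR-381 match had a median GC content of 40.9% against 43.4% without, and those with a let-7 match 43.3% against 42.5%. The part of GC content in these values was not tested.

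Known let-7 targets were also followed by name. Of 32 genes in the list 21 were expressed in both cell types. Of these, 13 were higher in naive cells and 2 in MEFs, against 35.5% and 29.6% of all genes. Their median difference was 0.96, or 0.86 relative to all genes. With length and GC trends taken out, 13 and 1 were called and the median relative to all genes was 0.21. A match was found in 16 of the 21, of which 9 were higher in naive cells and 2 in MEFs. Sites of the genes at either end of the list are shown with the 15 bases before them on the transcript strand and the match in capitals (mm10, GENCODE M21 3′ UTRs).
Nr6a1 (chr2:38727720-38727741, minus strand): gagactgtggagcagCTACCTC
Nr6a1 (chr2:38727450-38727471, minus strand): tgttgacaaagacaaCTACCTC
Igf2bp2 (chr16:22059474-22059495, minus strand): acacacaaataaaagCTACCTC
Cdc34 (chr10:79688112-79688133, plus strand): gcctcaggcgacagaCTACCTC
Hmga1 (chr17:27563277-27563298, plus strand): tcctctgttcacaaaCTACCTC
Nr6a1, a nuclear receptor gene with 8 matches, of which the first 2 are shown, had a difference of 2.72 ± 0.23, and Igf2bp2, which encodes an mRNA-binding protein, of 2.62 ± 0.19. Cdc34, a ubiquitin-conjugating enzyme (−1.67 ± 0.17), and Hmga1, a chromatin protein (−0.74 ± 0.14), were higher in MEFs although each has a match, but turned to 0.50 and 0.72 with length and GC trends taken out. Hmga1 also lost its call without MEF cytoplasm replicate 1 or 2 (−0.49 and −0.52). Nr6a1 stood at 171 and 166 CPM in naive P-bodies, 27.9 and 38.4 CPM in naive cytoplasm, 12.9 and 13.5 CPM in MEF P-bodies and 15.3 and 18.9 CPM in MEF cytoplasm. Cdc34 stood at 123 and 136, 217 and 199.7, 113 and 117 and 52.9 and 64.1 CPM in the same order. Members with a match thus occurred in both directions.

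Several familiar let-7 targets were low in one cell type. Lin28a, the RNA-binding protein that blocks let-7 maturation, was at 7.27 and 6.10 CPM in naive P-bodies and 1.82 and 0.219 CPM in naive cytoplasm and had 0 reads in all 4 MEF libraries, so that no difference can be given. Hmga2 was at 1.56 and 1.04 CPM in naive P-bodies and 0.875 and 3.42 CPM in naive cytoplasm, and at 142 and 175 CPM in MEF P-bodies and 129 and 131 CPM in MEF cytoplasm, with no call (edgeR adjusted p = 0.208) except without naive cytoplasm replicate 1 (−1.7). Myc was at 2.25 and 2.75 CPM in naive P-bodies and 0.219 and 0.947 CPM in naive cytoplasm, and at 52.9 and 47.8 CPM in MEF P-bodies and 88.9 and 78.5 CPM in MEF cytoplasm, a difference of 2.83 ± 0.47. Ccnd1, cyclin D1, was enriched in both (1.08 ± 0.15 and 0.67 ± 0.13), and its difference did not pass the test (adjusted p = 0.131 by edgeR), although it did without MEF P-body replicate 1 (0.76).

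The same lists were read in the other P-body comparisons of the table, from 1 fit of all 20 libraries. The median enrichment of the 82 cytosolic ribosomal protein genes was −0.44 in naive ES cells, −0.15 in primed ES cells, 1.33 in MEFs and 0.58 in control MEFs at day 3 of reprogramming. The 265 zinc finger genes gave 2.0, 1.03, −0.08 and 0.31 in the same order. Naive cells and MEFs were at the ends of both orders, with primed and day 3 control cells between them. Not every list did so. In the same order, the 13 snoRNA hosts gave −0.03, −0.79, 1.35 and 0.47. The 6 nuclear and imprinted long noncoding RNAs gave 0.94, −0.47, 1.33 and −0.23. The correlation of enrichment with length was −0.07 in primed cells and −0.47 in day 3 control cells, and that with GC content −0.45 and −0.30. Differences among these cells were not tested.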

How the data were processed

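RNA of sorted P-bodies and of the cytoplasmic fraction before sorting was sequenced after Smart-seq library preparation, which the paper treats as poly(A)-directed. The values are estimated counts per RefSeq gene that the authors deposited, made with HISAT2 and featureCounts on mm10, and 18.3% to 25.7% of the values per library were fractional and were rounded here. Counts were tested with edgeR 4.0.16 in R 4.3.3 (TMM scaling, quasi-likelihood test, a minimum of 10 reads per gene in the 8 libraries together, Benjamini-Hochberg adjustment over all 18143 genes, two-sided, threshold 0.05), as an interaction of cell type and fraction. CPM values are TMM-scaled, except those of cell type markers. The enrichment SE and the difference SE come from the same fit, each as the size of the log2 value over the square root of its F statistic. Recovery was checked on simulated counts for this comparison with 18143 genes. Changes were given only to genes with a mean of at least 5 CPM, and all groups shared the same baseline level. Of these, 58.2% of changes of 1 and 95.6% of changes of 2 on the log2 scale were recovered, with 9 false calls. Recovery for genes at lower levels, or at unlike levels in the cell types, was not tested.

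Members and gene lists were chosen with earlier results of these data known. Named genes were the 8 largest called differences in each direction among genes at 10 CPM or more in both cell types with non-overlapping libraries, the leading genes of the enrichment classes, up to 2 members of each list in each direction, and fixed genes. Transcript features came from GENCODE M21, which matched 97.8% of symbols. Alternatives were DESeq2 1.42.0 and its size factors, other filters, all 20 libraries, a replicate block, length and GC trends as offsets (mgcv 1.9.3) and leaving out each library. MicroRNA sequences were RefSeq entries. The strand setting of the counting is not given in the sources used here. One item is not reported here.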

Additional observations from a re-analysis of the deposited data

Results flagged for a closer look

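Enrichment differed between the 2 cell types by the interaction test for 6060 genes expressed in both, and this test is what singled out the results here. Of these, 867 genes were enriched in naive and depleted from MEF P-bodies and 1116 genes were depleted from naive and enriched in MEF P-bodies.

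Among the genes of opposite enrichment, the log2 difference was 5.261 for Gja1, 5.048 for Flrt3, 4.619 for Slfn9, 4.198 for Adgrl2, 3.193 for Rlf and 3.134 for Cep170 in the naive direction. In the MEF direction it was −6.334 for Ly6a, −3.395 for Avpi1, −3.169 for Vamp8, −3.024 for Cox8a, −2.904 for Slc22a17 and −2.873 for Cox6a1. All 12 differences kept their call with DESeq2, and with length and GC trends as offsets that of Cox6a1 was lost.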

How the results depend on the processing

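Counts of genes with a higher enrichment in naive cells stayed within 1.5 times of the reported ones under the alternatives run, and counts of genes higher in MEFs moved with the scaling and the offsets. With length and GC trends as offsets, and with these plus the replicate block, genes higher in MEFs were 1437 and 1299 of all tested and 1057 and 947 of those expressed in both, genes depleted in naive cells 1192 and 1068, enriched in MEFs 1623 and 1471, depleted in naive and enriched in MEF P-bodies 249 and 205, and depleted in both 460 and 401. With no filter, and with all 20 libraries, genes depleted in naive cells were 2055 and 2179, and those depleted in naive and enriched in MEF P-bodies 611 and 690; with the 4 naive libraries alone 1725 were depleted. The cause was not tested. Leaving out 1 library gave 2099 to 3970 and 1714 to 3106 genes higher in MEFs, 1683 to 3514 depleted in naive cells, 575 to 1122 enriched in naive and depleted in MEFs, 409 to 1344 the reverse, 410 to 856 enriched in both and 549 to 1531 depleted in both. Lists with over 50% of members higher in MEFs numbered 12, 1 with offsets and 7 to 12 with 1 library left out.

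The correlation of the difference with transcript length was 0.60 for the median over transcripts, 0.58 at a level of 1 CPM and 0.65 at 10 CPM, and with 3′ UTR length 0.47, 0.45 and 0.49; with coding length it was 0.46 at 1 CPM. With 1 library left out these ran over 0.60 to 0.64 (length), 0.47 to 0.48 (3′ UTR length), 0.47 to 0.53 (coding length), −0.51 to −0.45 (GC content), −0.36 to −0.31 (3′ UTR GC content) and −0.45 to −0.40 (coding GC content). On the shortest 3′ UTR the median difference of genes with a match minus those without was 0.38 for let-7a-5p, 0.67 for miR-300-3p, 0.68 for miR-381-3p, 0.73 for miR-294-3p, 0.70 for miR-17-5p, 0.70 for miR-21a-5p, 0.39 for miR-29a-3p and 0.56 for miR-199a-3p.

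The sign of some named genes turned. With the offsets, without and with the block, the turned values were Adgra2 (0.023 and 0.11), Cdc34 (0.49 and 0.49), Ercc1 (0.37 and 0.37), Gapdh (1.11 and 1.11), Hmga1 (0.72 and 0.72), Klf2 (0.55 and 0.56), Klf4 (0.022 and 0.043), Kmt2d (0.35 and 0.36), Rian (−0.64 and −0.54), Rpl4 (0.24 and 0.24), Snhg14 (−0.82 and −0.76), Taf1d (0.64 and 0.64) and Timp1 (0.019, with the block only). With no filter and with all 20 libraries they were Adgra2 (0.099 and 0.082), Kmt2d (0.026 and 0.008) and Taf1d (0.21 and 0.19). With 1 library left out the difference ran through 0 for Adgra2 (−0.53 to 0.36), Ephb2 (−0.026 to 0.59), Gm36712 (−0.037 to 0.64), Hmga2 (−1.7 to 0.26), Kmt2d (−0.31 to 0.12), Prag1 (−0.28 to 0.45) and Taf1d (−0.24 to 0.39). Of the alternative values of named genes, 1523 kept direction and side of the threshold, 39 kept direction and lost the call, 19 gained one and 47 turned. Same-numbered libraries did not deviate together (correlation of deviations −0.03 in naive cells and −0.04 in MEFs). By the methods of the study, sorted P-bodies were kept with aliquots of the matching cytoplasmic fraction. These correlations cannot show whether same-numbered libraries came from the same preparation, and the main fit did not pair them. With the replicate block 3241 genes were higher in naive cells and 2618 in MEFs, 824 and 969 had opposite enrichment, and the block alone changed no count by over 1.5 times. With 2 libraries per group and 10770150 to 31185874 reads each, transcripts under 5 CPM were not compared.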
